A study of Mus musculus with 8 samples.

Results

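Ribosome biogenesis and nucleolar genes are described here in mouse liver, across fasting, re-feeding and loss of Med23, a subunit of Mediator, through which activators reach RNA polymerase II. The set holds 33 genes, chosen by name. All 33 were found among the 23699 loci of the series, and all 33 had an FPKM (a fragment count per kilobase of transcript, relative to all mapped fragments) of at least 1 in at least 2 libraries, as did 10865 loci in all. By role, 3 encode proteins of the box C/D small nucleolar ribonucleoproteins (Fbl, Nop56, Nop58). Another 4 belong to the box H/ACA particles (Dkc1, Gar1, Nhp2, Nop10), and 4 are subunits of RNA polymerase I (Polr1a, Polr1b, Polr1c, Polr1e). The rest are 10 factors of the small subunit, 7 factors of the large subunit and 5 other nucleolar proteins (Ncl, Npm1, Nolc1, Ddx21, Mybbp1a).

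Polyadenylated RNA came from the livers of male C57/BL6 mice, 8 weeks old, in 4 groups of 2 libraries. Controls and mice with a liver-specific knockout of Med23 (LMKO) were studied after a fast of 24 h, or after the same fast and 24 h of renewed feeding. All groups thus share the fast. Neither the promoter behind the deletion nor the exact genotype of the control mice could be found. The n of 2 per group is that of the design text, so a range of FPKM within a group spans 2 libraries. Each standard error (SE) below comes instead from a fit that takes a gene's spread from all 8 libraries.

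Ribosomes are built in the nucleolus, where RNA polymerase I transcribes the ribosomal RNA precursor. Box C/D particles guide 2'-O-methylation of that RNA and box H/ACA particles guide its pseudouridylation, while assembly factors fold it, cut it and load it with ribosomal proteins. Building ribosomes costs a cell much energy and is known to respond to nutrients and insulin, in the liver as elsewhere.

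After re-feeding, 8 of the 33 genes were higher in control liver and 13 were higher in LMKO liver, while Npm1 was lower in both. The higher genes make 24.2% of the set in control and 39.4% in LMKO. Over all loci 22.8% and 23.2% were called higher, so the control share is near that background. Over all loci 10.5% and 16.3% were called lower. The H/ACA protein gene Nhp2 had the largest log2 fold change of FPKM + 1 of the set in both genotypes, with mean FPKM 1.82-fold higher in control and 3.47-fold higher in LMKO. By mean FPKM alone, the weakly expressed Polr1e rose more than Nhp2 in control, 1.90-fold. No gene of the set passed the test between LMKO and control liver. Because the measurements are of bulk tissue, fewer cells of a type and less RNA per cell cannot be told apart in any of these values.

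To show the motifs counted next in their context, the 250 bases before the RefSeq start (build GRCm38.p6) are printed for 3 genes. Nhp2 and Gar1 had the largest log2 fold changes of the H/ACA genes in LMKO liver, and the window of Nop2, a ribosomal RNA methyltransferase of the large subunit, holds both motifs. Capitals mark CCGGAAG, the core of an Ets family site, and CACGTG, the E-box bound by Myc and related factors, each sought on both strands.

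Nhp2, chr11:51619523-51619772, plus strand: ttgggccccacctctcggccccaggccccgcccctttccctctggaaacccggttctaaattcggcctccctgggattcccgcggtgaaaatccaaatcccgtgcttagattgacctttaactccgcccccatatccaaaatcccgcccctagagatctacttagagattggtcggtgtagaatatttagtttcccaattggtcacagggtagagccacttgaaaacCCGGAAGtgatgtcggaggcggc
Gar1, chr3:129831397-129831646, minus strand: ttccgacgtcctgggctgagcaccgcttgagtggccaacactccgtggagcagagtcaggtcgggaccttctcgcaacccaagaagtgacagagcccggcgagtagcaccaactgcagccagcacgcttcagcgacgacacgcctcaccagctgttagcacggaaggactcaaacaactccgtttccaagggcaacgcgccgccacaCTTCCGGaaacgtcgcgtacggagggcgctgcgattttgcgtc
Nop2, chr6:125131633-125131882, plus strand: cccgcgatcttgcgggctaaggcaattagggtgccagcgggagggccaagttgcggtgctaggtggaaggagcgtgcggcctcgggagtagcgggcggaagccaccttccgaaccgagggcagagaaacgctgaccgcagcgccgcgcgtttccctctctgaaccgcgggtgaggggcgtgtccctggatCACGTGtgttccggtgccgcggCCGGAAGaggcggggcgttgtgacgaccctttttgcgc

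Of the 33 genes, 29 had a promoter window of 300 bases in RefSeq, 250 before and 50 after the start. CACGTG occurred in 6 of the 29 (Ltv1, Mybbp1a, Nop2, Pes1, Tsr1 and Wdr43), against 12.3% of the 7789 tested genes with a window. Of these 6, 0 were called higher after re-feeding in either genotype (limma, as below), beside 7 in control and 11 in LMKO of the 23 without it. Over all loci 22.8% and 23.2% were called higher. The median log2 fold changes of the 6 were still positive, at 0.09 in control and 0.26 in LMKO, beside 0.31 and 0.40 without the motif. CCGGAAG occurred in 9 of 29 (20.7% of tested genes): Gar1, Heatr1, Ltv1, Nhp2, Nolc1, Nop2, Polr1c, Polr1e and Tsr1. Of these 9, 3 were called higher in control and 4 in LMKO, beside 4 and 7 of the 20 without it. Their medians were 0.28 and 0.60, beside 0.21 and 0.29 without it. The palindromic Nrf1 site occurred in 5 of 29 (12.1% of tested genes) with any base at its centre, and in 0 of 29 (2.52% of tested genes) in its strict form. CCAAT occurred in 10 of 29 (43.2% of tested genes) and TATAAA in 2 of 29 (9.26% of tested genes). The other 5 motifs were searched after CACGTG had been counted. A match describes letters in a window and shows no binding.

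The libraries differed in ways that touch these results. The FPKM of all loci summed to between 453652 and 597650 per library, and the relative depth read from low values ran from 0.956 to 1.11. Across genes, a library's deviation from the mean of all libraries correlated with log2 transcript length at 0.240 to 0.309 in the fasted libraries, at -0.382 to -0.340 in 3 re-fed libraries and at -0.0234 in re-fed control replicate 1. The deposited names share a prefix in all fasted libraries and a different prefix in all re-fed libraries. If that marks a batch, batch and feeding cannot be told apart. Of 8 hepatocyte markers 7 were found, but Alb (albumin) had a listed value of 0 in each of the 8 libraries. The markers summed to 23923 to 26283 FPKM in fasted and 16303 to 24548 FPKM in re-fed libraries. They did not move together: of the 6 tested, 3 were called lower and 1 higher after re-feeding in each genotype (limma, as below).

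Markers of other cells moved with feeding as well. The 6 markers of sinusoidal endothelium summed to 50.7 to 78.0 FPKM in fasted and 36.5 to 47.9 in re-fed libraries, and 4 of the 6 fell in control and 5 in LMKO liver (limma, as below). For the 8 Kupffer cell markers the sums were 92.6 to 132 and 43.9 to 98.8, with 1 and 5 genes lower. The re-fed sums also differed by genotype, with 80.9 and 98.8 in control and 43.9 and 66.2 in LMKO. In re-fed livers 8 of 8 Kupffer, 7 of 7 stellate and fibroblast and 5 of 6 endothelial markers had lower estimates in LMKO than in control, and 0 were called. The 2 neutrophil markers tested had higher estimates, as did 51.5% of all loci. The 7 stellate and fibroblast markers summed to 87.2 to 105 and 53.8 to 88.9, and the 5 cholangiocyte markers to 8.12 to 12.03 and 24.2 to 30.1. The stellate and fibroblast markers did not move together. In control 5 of 7 had a positive log2 fold change, with 1 called higher and 1 lower. In LMKO 3 of 7 were positive, with 0 called higher and 2 lower. Of the cholangiocyte markers 3 were tested, and 1 was called higher in each genotype. Markers of dividing cells were near the floor in fasted libraries (0.800 to 1.21). Their sums were 6.12 and 4.76 in re-fed control and 1.13 and 2.92 in re-fed LMKO. The sums were at most 2.34 for T and NK cell markers, 1.78 for B cell markers and 9.34 for neutrophil markers. The part of these shifts in the results below was not tested.

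Differences were tested with limma on log2(FPKM + 1) in a model of the 4 groups, with Benjamini-Hochberg adjustment over all 10865 loci. Calls needed an adjusted p under 0.05. All log2 fold changes below use this scale, on which the change of weakly expressed genes is understated. Among all loci, 22.8% were called higher and 10.5% lower after re-feeding in control liver, and 23.2% and 16.3% in LMKO liver. The 8 genes higher in control make 24.2% of the 33, a share near that background, and the 13 higher in LMKO make 39.4%. The 1 lower gene makes 3.03% in each. The median log2 fold change of the 33 genes was 0.28 in control (0.13 over all loci) and 0.36 in LMKO (0.06 over all loci). With median-ratio scaling the median over all loci came to 0.0011 in control and that of the 33 genes to 0.16, 4 of them were called higher (Fbl, Nhp2, Polr1e and Wdr12), and the calls over all loci went from 2473 higher and 1137 lower to 1817 and 1720. In LMKO the same scaling left 13 genes of the set called higher, beside 2318 higher and 2135 lower loci in place of 2521 and 1775.

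**Figure D1:**
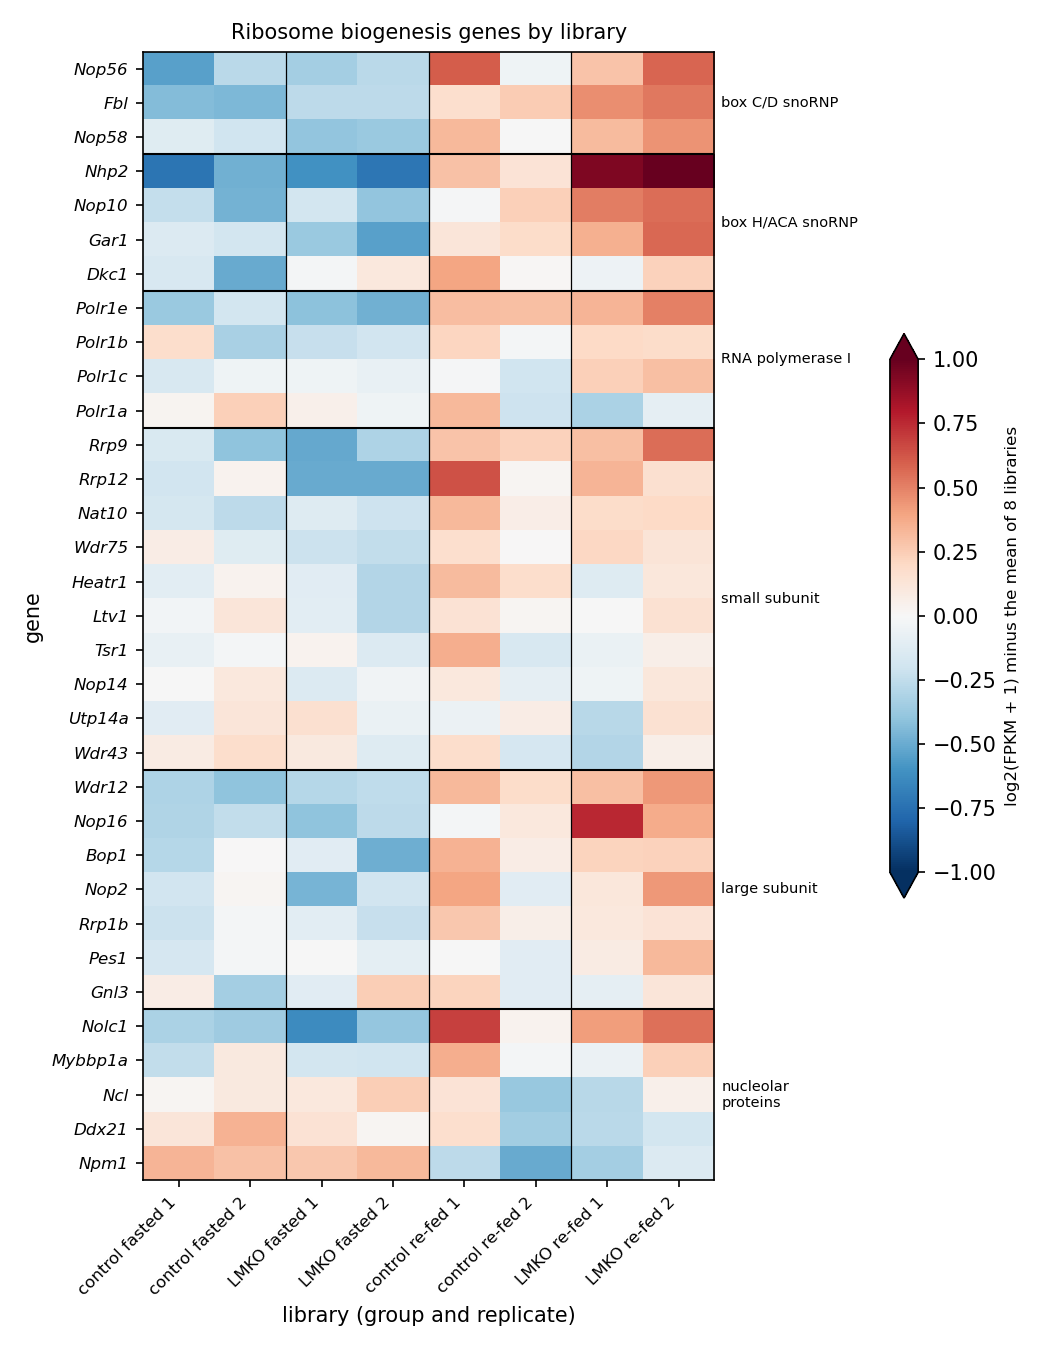
Each cell gives a gene's log2(FPKM + 1) in 1 library minus its mean over the 8 libraries (color scale cut at -1 and 1), with the 33 genes in rows by role and the libraries in columns by group. Nhp2 is highest in both re-fed LMKO libraries, Npm1 is high in all 4 fasted libraries, and re-fed control replicate 1 lies above replicate 2 for 28 of the 33 genes.

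Both libraries of a group did not always stand together. Re-fed control replicate 1 was above replicate 2 for 28 of 33 genes, while 56.6% of all tested loci were higher in replicate 1. Re-fed LMKO replicate 1 was above replicate 2 for 4 of 33 genes, against 38.4% of all loci. Together the 33 genes made up 0.0885% to 0.0934% of the FPKM sum in fasted libraries. The shares were 0.0953% and 0.0760% for the re-fed control libraries and 0.0829% and 0.0947% for re-fed LMKO.

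The box C/D genes were measured first by Fbl, the methyltransferase of the particle (chr7, 28954767 to 28964288, mm9, as for all loci below). Fbl had 17.9 and 17.7 FPKM in fasted controls, 20.3 and 20.3 in fasted LMKO livers, 27.7 and 29.5 in re-fed controls, then 34.3 and 35.9 in re-fed LMKO. All re-fed libraries lay above all fasted libraries. It rose by a log2 fold change of 0.65 in control (SE 0.10, limma adjusted p = 0.00606) and 0.76 in LMKO (SE 0.10, adjusted p = 0.00286). After removal of the length trend Fbl stayed called in both genotypes under 2 of the 3 length measures tried, but not with the longest protein-coding transcript (0.20, adjusted p = 0.157 and 0.22, adjusted p = 0.115).

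The scaffold proteins of the same particle are encoded by Nop56 and Nop58. Nop56 had 8.78 and 10.8 FPKM in fasted controls and 20.7 and 12.8 in re-fed controls, against 10.3 and 10.8 in fasted LMKO and 16.4 and 20.4 in re-fed LMKO. The re-fed libraries were above the fasted ones in both genotypes, with a wide gap between the 2 re-fed controls. Its log2 fold change in control was 0.69 (SE 0.23, limma adjusted p = 0.0585), which missed the threshold. In LMKO it was 0.74 (SE 0.23, limma adjusted p = 0.0415), a call that was lost without any 1 of 6 libraries. The LMKO call was also lost after removal of the length trend by the longest protein-coding transcript (0.44, limma adjusted p = 0.214). Nop58 had 10.2 and 9.61 FPKM in fasted controls, 14.3 and 11.2 in re-fed controls, 8.29 and 8.43 in fasted LMKO, and 14.2 and 15.6 in re-fed LMKO. It rose in LMKO by 0.76 (SE 0.14, adjusted p = 0.0069), and in control its log2 fold change was 0.33 (adjusted p = 0.11). After removal of the length trend Nop58 was called in control by both measures of transcript length (0.62, limma adjusted p = 0.00702 and 0.62, adjusted p = 0.00682) and not by coding length (0.24, adjusted p = 0.166).

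Among the H/ACA genes, Nhp2 (chr11, 51433275 to 51437216), a core RNA-binding protein of the particle, had the largest log2 fold change. It had 12.1 and 14.6 FPKM in fasted controls and 13.3 and 12.1 in fasted LMKO, then 25.6 and 22.8 in re-fed controls, with 40.4 and 47.9 in re-fed LMKO. The 4 fasted libraries overlapped, and the re-fed groups lay above them without overlap with each other. It rose by a log2 fold change of 0.82 in control (SE 0.15, limma adjusted p = 0.00889) and 1.72 in LMKO (SE 0.15, adjusted p = 0.00115). The LMKO call was kept under all alternatives run. The control call was lost under each length measure, with log2 values of 0.32, 0.32 and 0.36 and adjusted p = 0.199, 0.196 and 0.126.

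Gar1 and Nop10 encode the other small proteins of the H/ACA core. Gar1 had 3.32 and 3.17 FPKM in fasted controls, 2.67 and 2.25 in fasted LMKO livers, 4.15 and 4.40 in re-fed controls, then 5.06 and 6.08 in re-fed LMKO. It rose in LMKO by 0.92 (SE 0.12, limma adjusted p = 0.00297) under all alternatives run, and its control value was 0.31 (adjusted p = 0.0949). Nop10, the smallest of the 4 proteins, had 43.7 and 36.9 FPKM in fasted controls, 45.4 and 39.0 in fasted LMKO livers, 51.4 and 61.3 in re-fed controls, then 74.1 and 76.8 in re-fed LMKO.

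Nop10 rose by 0.47 in control (SE 0.15, limma adjusted p = 0.0497) and 0.83 in LMKO (SE 0.15, adjusted p = 0.00708). Its control call was lost when any 1 library was left out, and the value turned to -0.0081, -0.0089 and -0.22 under the 3 length measures; the LMKO call was lost under all 3 and turned to -0.064 under coding length. Nop10 has the shortest coding sequence of the set, 192 bases. Dkc1, the pseudouridine synthase itself, had 4.43 and 3.29 FPKM in fasted controls, 5.00004 and 5.55 in fasted LMKO livers, 6.98 and 5.12 in re-fed controls, then 4.86 and 6.13 in re-fed LMKO. It passed in neither genotype (0.53, adjusted p = 0.0693 in control and 0.04, adjusted p = 0.869 in LMKO).

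**Figure D2:**
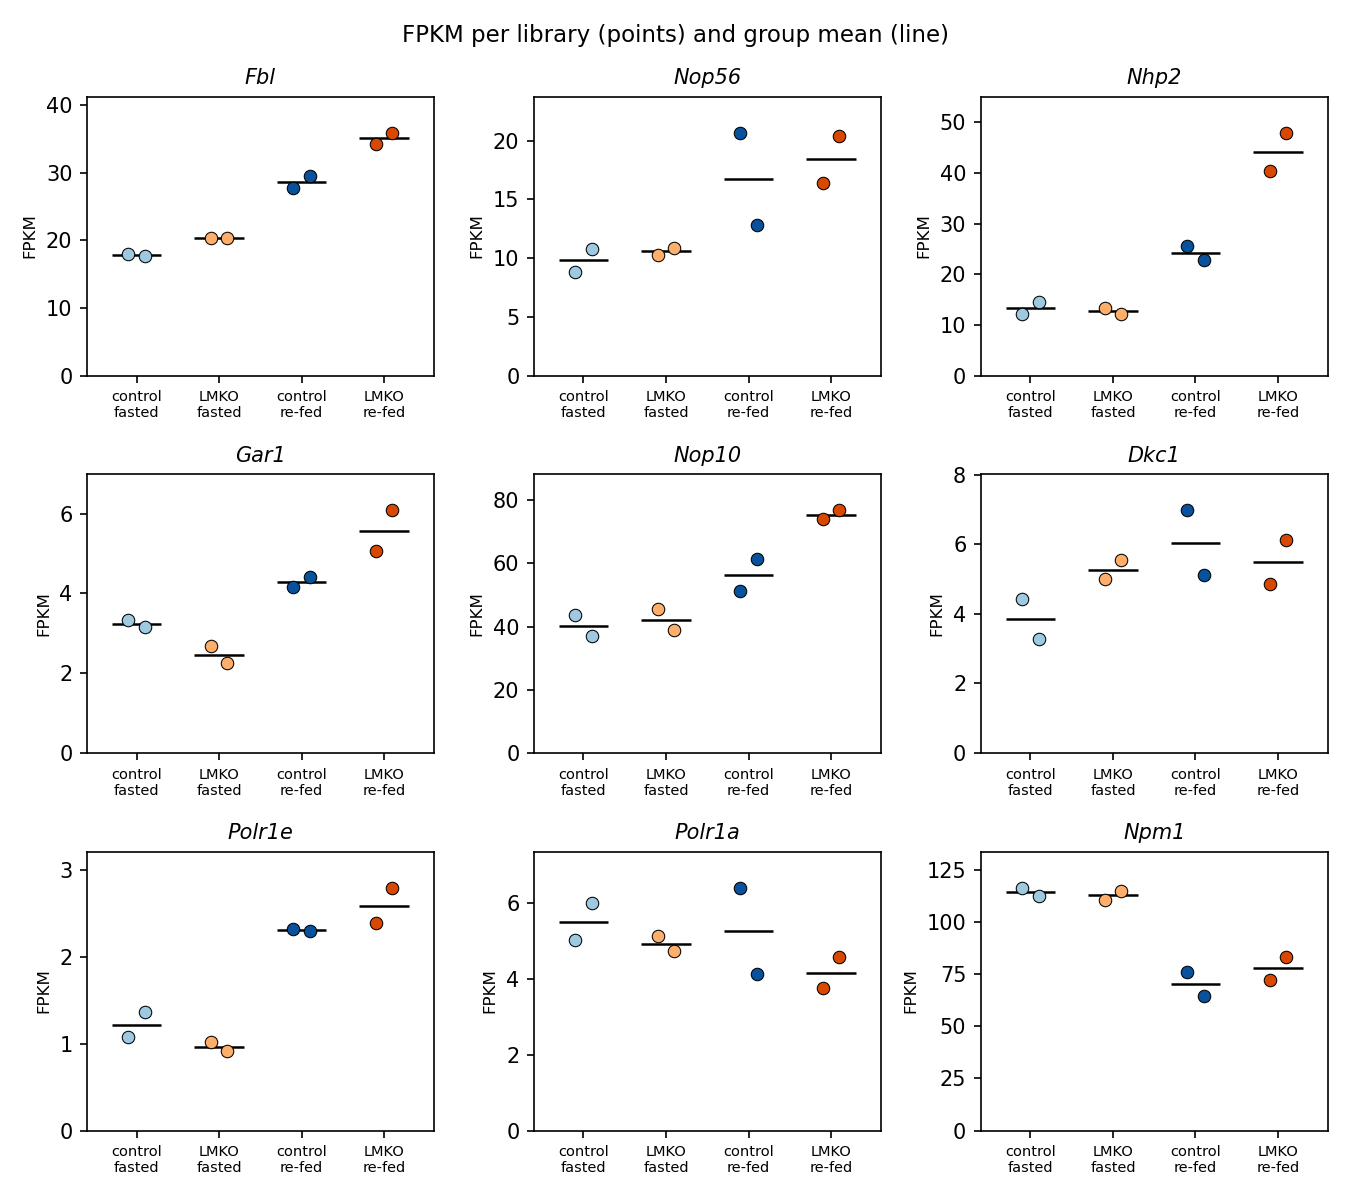
Points give the FPKM of each library and lines the group mean of 2 libraries, for 9 genes with axes that start at 0. Nhp2 reaches 40.4 and 47.9 in re-fed LMKO, against 12.1 to 14.6 in the 4 fasted libraries, and Npm1 is at 110.7 to 116.4 in the fasted and 64.3 to 83.3 in the re-fed libraries.

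Of the 4 genes for RNA polymerase I, only Polr1e passed in the fit described above; Polr1b was called in LMKO under coding length (0.70, limma adjusted p = 0.0196). Polr1e encodes a subunit that helps the enzyme start, and it had the lowest mean level of the set. Polr1e (chr4, 45031497 to 45046564) had 1.07 and 1.36 FPKM in fasted controls, 1.02 and 0.916 in fasted LMKO livers, 2.32 and 2.29 in re-fed controls, then 2.38 and 2.79 in re-fed LMKO. All re-fed libraries were above all fasted ones. It rose by 0.58 in control (SE 0.12, limma adjusted p = 0.0142) and 0.87 in LMKO (SE 0.12, adjusted p = 0.00325), and both calls were kept under all 3 length measures. The control call was lost without fasted control replicate 1 or re-fed control replicate 2 (adjusted p up to 0.0561).

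Polr1a and Polr1b encode the large catalytic subunits. Polr1a had 5.03 and 5.99 FPKM in fasted controls, 5.13 and 4.74 in fasted LMKO livers, 6.40 and 4.13 in re-fed controls, then 3.76 and 4.57 in re-fed LMKO. Polr1b had 6.08 and 4.01, 4.36 and 4.49, 6.30 and 5.18, and 6.19 and 6.12 FPKM in the same groups. Neither passed: the log2 fold changes of re-feeding were -0.07 and 0.17 in control (limma adjusted p = 0.793 and 0.482) and -0.20 and 0.40 in LMKO (adjusted p = 0.429 and 0.118). Polr1c, a subunit shared with RNA polymerase III, had values of -0.0028 and 0.33 (adjusted p = 0.989 and 0.0581).

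In the small-subunit group, 2 of 10 genes rose in control and 3 of 10 in LMKO. Beside these, 22.8% of all loci were called higher in control and 23.2% in LMKO, so the control count lies near that background. Rrp9, a protein of the U3 particle that serves early cleavage of the precursor, had 4.92 and 3.98 FPKM in fasted controls, 3.62 and 4.31 in fasted LMKO livers, 7.01 and 6.74 in re-fed controls, then 7.13 and 8.71 in re-fed LMKO. All re-fed libraries were above all fasted ones. It rose by 0.54 in control (SE 0.15, limma adjusted p = 0.0323) and 0.84 in LMKO (SE 0.15, adjusted p = 0.00635). Its control call was lost under all 3 length measures and without fasted control replicate 2 or either re-fed control, and its LMKO call under the 2 measures of transcript length.

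Nat10, an RNA acetyltransferase, had 4.82 and 4.47 FPKM in fasted and 7.19 and 5.87 in re-fed controls, and rose by 0.41 (SE 0.12, limma adjusted p = 0.0405). This call held when re-fed control replicate 2 was left out and lost without any other library. In LMKO, Nat10 had 4.99 and 4.69 FPKM when fasted and 6.44 and 6.52 when re-fed (0.36, adjusted p = 0.0548). It was called in LMKO under each length measure (0.47, 0.42 and 0.62, limma adjusted p = 0.0137, 0.0211 and 0.00479), as it was in control. Rrp12 and Wdr75 rose in LMKO, by 0.76 (limma adjusted p = 0.0291) and 0.40 (adjusted p = 0.038), and both calls were lost without any 1 LMKO library. The Wdr75 call was also lost under both measures of transcript length (0.313 and 0.315, limma adjusted p = 0.0678 and 0.0689). The other 6 genes (Utp14a, Wdr43, Heatr1, Nop14, Tsr1 and Ltv1) passed in neither genotype, with log2 fold changes from -0.13 to 0.28. Of these, Heatr1 was called higher in both genotypes under each length measure, with 0.45, 0.46 and 0.58 in control (limma adjusted p = 0.0334, 0.0319 and 0.014) and 0.55, 0.57 and 0.72 in LMKO (adjusted p = 0.016, 0.0149 and 0.00606).

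In the large-subunit group, Wdr12, which works in a complex with Pes1 and Bop1, was called in both genotypes. It had 3.96 and 3.64 FPKM in fasted controls, 4.04 and 4.15 in fasted LMKO livers, 6.68 and 5.96 in re-fed controls, then 6.55 and 7.28 in re-fed LMKO. It rose by 0.61 in control (SE 0.11, limma adjusted p = 0.00964) and 0.63 in LMKO (SE 0.11, adjusted p = 0.00652), and these calls were kept under all 3 length measures; the control call was lost without fasted control replicate 2 (adjusted p = 0.0549).

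Its partners did not pass. Pes1 had 10.6 and 11.9 FPKM in fasted controls, 12.04 and 11.2 in fasted LMKO livers, 12.01 and 11.1 in re-fed controls, then 12.9 and 15.4 in re-fed LMKO, with log2 fold changes of 0.04 and 0.26 (limma adjusted p = 0.851 and 0.154). Bop1 had 8.60 and 10.7, 9.83 and 7.36, 13.9 and 11.3, and 12.7 and 12.7 FPKM in the same groups, with 0.35 and 0.52 (adjusted p = 0.165 and 0.0536). Under coding length Bop1 was called in LMKO (0.64, limma adjusted p = 0.0193). The Wdr12 response thus passed where those of Pes1 and Bop1 missed the threshold, and the difference between the genes was not tested.

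Nop16, a nucleolar protein of the large subunit, rose in LMKO by 0.90 (SE 0.15, limma adjusted p = 0.00586), from 10.02 and 11.2 FPKM to 23.6 and 17.9. In control it had 10.8 and 11.3 FPKM when fasted and 13.4 and 14.7 when re-fed (0.31, adjusted p = 0.152). Its LMKO call was lost under coding length alone among the length measures (adjusted p = 0.0752). Nop2, Rrp1b and Gnl3 passed in neither genotype, with values from -0.05 to 0.60. Under each length measure Rrp1b was called in LMKO (0.45, 0.49 and 0.40, limma adjusted p = 0.0282, 0.0223 and 0.0337).

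The genes of the 5 other nucleolar proteins did not move together. Nolc1, a chaperone of small nucleolar ribonucleoproteins, had 7.36 and 7.16 FPKM in fasted controls, 5.74 and 6.97 in fasted LMKO livers, 15.8 and 9.68 in re-fed controls, then 12.9 and 14.2 in re-fed LMKO. It rose by 0.70 in control (SE 0.21, limma adjusted p = 0.0466), a call kept only without re-fed control replicate 2 among the 8 omissions, and by 0.99 in LMKO (SE 0.21, adjusted p = 0.0128). The LMKO call was lost without fasted LMKO replicate 1 or re-fed LMKO replicate 2 (adjusted p up to 0.0679), and the control call under both measures of transcript length.

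Npm1 (chr11, 33052498 to 33063206), a histone and ribosome chaperone, had the highest level of the set and was the only member called lower. It had 116.4 and 112.5 FPKM in fasted controls, 110.7 and 114.9 in fasted LMKO livers, 76.2 and 64.3 in re-fed controls, then 72.2 and 83.3 in re-fed LMKO. All re-fed libraries were below all fasted ones. Npm1 fell by 0.70 in control (SE 0.13, limma adjusted p = 0.0109) and fell by 0.53 in LMKO (SE 0.13, adjusted p = 0.0205). The control call was lost without re-fed control replicate 2 (adjusted p = 0.0515) and the LMKO call without any 1 LMKO library. Npm1 has many processed pseudogenes that can share its reads, so its level is uncertain.

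Ncl, nucleolin, had 23.8 and 25.3 FPKM in fasted controls, 25.4 and 28.0 in fasted LMKO livers, 25.9 and 17.8 in re-fed controls, then 19.3 and 24.3 in re-fed LMKO. It did not pass (-0.18 and -0.29, limma adjusted p = 0.509 and 0.277). Ddx21, an RNA helicase, had -0.32 and -0.31 (adjusted p = 0.221 and 0.231), and without re-fed control replicate 1 it was called lower in control (-0.58). Mybbp1a, a nucleolar regulator of transcription, had 0.24 and 0.28 and did not pass.

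Inside the loci of 6 members, by coordinates, lie 11 small nucleolar RNA loci listed in the files. Of these, 10 were listed at 0 in all 8 libraries, and Snora75, inside Ncl, was above 0 in 5 of 8, at 14.8 to 16.4 FPKM. Short RNAs are poorly captured by a library of polyadenylated RNA, and an exact 0 can be a failed estimate, so these values bear on no comparison.

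**Figure D3:**
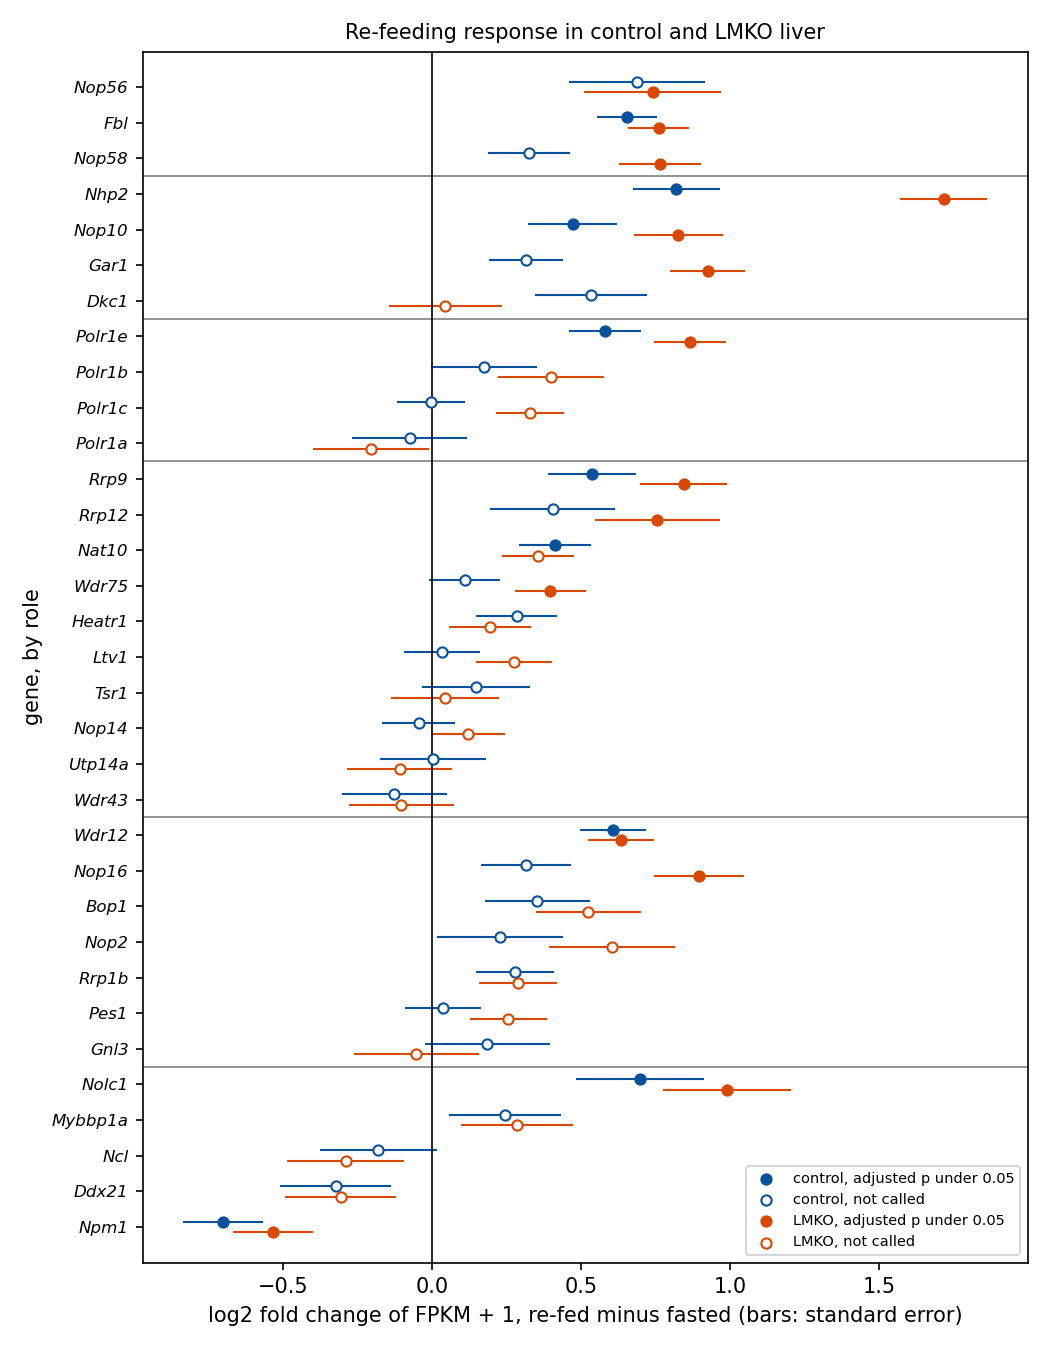
Points give the log2 fold change of FPKM + 1 (re-fed minus fasted) for each of the 33 genes, by role, in control (blue) and LMKO (orange), with bars of 1 standard error. Filled points have an adjusted p under 0.05: 9 in control and 14 in LMKO, with Nhp2 at 0.82 and 1.72 and Npm1 at -0.70 and -0.53.

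The re-feeding comparisons contrast separate libraries, but the fit takes each gene's spread from all 8 libraries. Their calls are therefore not independent. Of the genes called, Fbl, Nhp2, Nop10, Polr1e, Rrp9, Wdr12, Nolc1 and Npm1 were called in the same direction in both, 88.9% of the control list and 57.1% of the LMKO list. Over all loci, 2707 were called in the same direction in both, 75% of the control calls and 63% of the LMKO calls. Libraries of the re-fed group lay above both fasted libraries for 16 of the 33 genes in control (43.9% of all loci) and for 22 in LMKO (41.5%). They lay below for 1 in control (25% of all loci) and 4 in LMKO (33.8%). Without re-fed control replicate 1, 4 genes were called higher and 2 lower in control, and the median of the 33 went from 0.28 to 0.09.

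The same lists of the wider pathway were counted in the same fit. Of 127 other ribosome biogenesis genes tested, 31 rose and 1 fell in control, and 42 rose and 1 fell in LMKO, with median log2 fold changes of 0.17 and 0.25. The genes that rose make 24.4% and 33.1% of the list, where 22.8% and 23.2% of all loci rose. With median-ratio scaling the counts in control were 17 and 4, and in LMKO 39 and 5. After removal of the length trend they were 11 and 8, 10 and 10, or 16 and 7 in control by the 3 measures (transcript of any kind, protein-coding transcript, coding sequence), and 32 and 6, 27 and 7, or 39 and 4 in LMKO. The shares called higher were then 8.66%, 7.87% and 12.6% in control, below the 12.7%, 12.3% and 13.8% of all loci, and 25.2%, 21.3% and 30.7% in LMKO, beside 15.6%, 14.5% and 17.6%. By group, 9 and 13 of 45 small-subunit factors rose in control and LMKO, as did 11 and 15 of 49 large-subunit factors, 10 and 12 of 23 snoRNP assembly and exosome genes, and 1 and 2 of 10 RNA polymerase I factors. The gene that fell in both was Rcl1, a processing factor of the small subunit, from 79.8 and 86.4 to 53.5 and 48.2 FPKM in control and from 73.6 and 77.2 to 47.7 and 50.6 in LMKO (-0.70, limma adjusted p = 0.00719 and -0.61, adjusted p = 0.00822).

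Mrto4, a large-subunit assembly factor, had the largest rise of the wider lists in control (0.91, limma adjusted p = 0.0099) and rose by 1.11 in LMKO. The large-subunit factor Wdr74 rose by 0.52 and 0.82, and the helicase Ddx49 by 0.78 and 1.02. Of the exosome and its cofactors, which trim ribosomal RNA, Exosc7 rose by 0.82 and 0.75, Exosc8 by 0.81 and 0.86, Exosc9 by 0.57 and 0.80, and Mphosph6 by 0.89 and 0.85. Noc4l, a small-subunit factor, rose by 0.57 and 0.74. Znrd1, a small subunit of RNA polymerase I, rose by 0.64 and 1.05, and Taf1c, of its promoter factor, rose by 0.59 in LMKO, with 0.07 in control (limma adjusted p = 0.76); the difference between these responses did not pass (adjusted p = 0.54).

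The 82 cytosolic ribosomal protein genes tested are the products that these factors assemble. Of them 76 rose in control and 80 in LMKO, and none fell, with medians of 0.75 and 1.13. The genes that rose make 92.7% and 97.6% of the list, where 22.8% and 23.2% of all loci rose. With quantile normalization 33 and 64 rose, or 40.2% and 78%, beside 15.4% and 18.5% of all loci. The ribosomal protein genes are short, and many have pseudogene copies that can share reads. After removal of the length trend the counts were 22 and 53 (longest transcript of any kind), 19 and 39 (longest protein-coding transcript), and 26 and 71 of 81 (coding sequence), with 1 gene lower in each. In control these are 26.8%, 23.2% and 32.1% of the list, beside 12.7%, 12.3% and 13.8% of all loci. In LMKO they are 64.6%, 47.6% and 87.7%, beside 15.6%, 14.5% and 17.6%.

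Between LMKO and control liver, 0 of the 33 genes were called by limma in the fasted state (0.166% of all loci), the re-fed state (0.101%), over both states (0.313%) or in the test of the difference between the re-feeding responses (0.0368%). At an unadjusted p under 0.05 there were 1, 6, 3 and 3 genes, or 3.03%, 18.2%, 9.09% and 9.09% of the set, beside 12.4%, 11.7%, 15.1% and 9.35% of all loci. The medians of the set were -0.12, 0.08, -0.02 and 0.17, beside 0.08, 0.0080, 0.04 and -0.06 over all loci. These comparisons share libraries with those of re-feeding. Med23 itself had 2.86 and 2.93 FPKM (fasted controls), 2.35 and 2.18 (fasted LMKO), 2.86 and 2.33 (re-fed controls), and 1.61 and 1.74 (re-fed LMKO). It was lower in each LMKO library than in both controls of its state, and did not pass (adjusted p = 0.438 fasted and 0.315 re-fed).

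After fasting, LMKO libraries lay above both controls for 4 of the 33 genes (33% of all loci) and below for 9 (12.8%). The smallest p-values were those of Gar1 (-0.30, SE 0.12, limma adjusted p = 0.403), Rrp12 (-0.43, SE 0.21, adjusted p = 0.473) and Dkc1 (0.38, SE 0.19, adjusted p = 0.479). Rrp12 had 2.36 and 2.93 FPKM in fasted controls and 1.70 and 1.71 in fasted LMKO. None of these passed.

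After re-feeding, LMKO libraries lay above both controls for 9 genes (25.6% of all loci) and below for 1 (19.4%). Nhp2 was 1.82-fold higher by the mean (0.84, SE 0.15, limma adjusted p = 0.206), with adjusted p from 0.162 to 0.591 over the alternatives. Nop16 had 0.52 (SE 0.15, adjusted p = 0.321), and Polr1c had 0.37 (SE 0.11, adjusted p = 0.334) with 15.6 and 13.7 FPKM in control and 18.8 and 19.7 in LMKO. Over both states the smallest p-values were those of Nhp2 (0.39, SE 0.10, adjusted p = 0.183), Fbl (0.23, SE 0.07, adjusted p = 0.231) and Polr1c (0.21, SE 0.08, adjusted p = 0.295).

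The response to re-feeding had a larger estimate in LMKO than in control for 25 of the 33 genes (41.9% of all loci), but the difference passed for none. Without re-fed control replicate 2 the estimate was larger for 18 of 33, and the median difference went from 0.17 to 0.04. It was largest for Nhp2 (0.90, SE 0.21, limma adjusted p = 0.481), followed by Gar1 (0.61, SE 0.18, adjusted p = 0.507) and Nop16 (0.58, SE 0.21, adjusted p = 0.507). That Gar1 and Nop16 were called after re-feeding in LMKO and not in control therefore does not show that their responses differed.

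Length moved with several of these values. Over the 33 genes the log2 fold change of LMKO against control in the re-fed state correlated with log2 length at -0.63 by the longest transcript of any kind, -0.63 by the longest protein-coding transcript and -0.81 by the coding sequence (Pearson, n = 33 genes from the same 8 libraries, a description). For re-feeding in LMKO these were -0.34, -0.37 and -0.45, and in control -0.09, -0.18 and -0.23. The part of length in the results was not tested beyond removal of the trend.

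**Figure D4:**
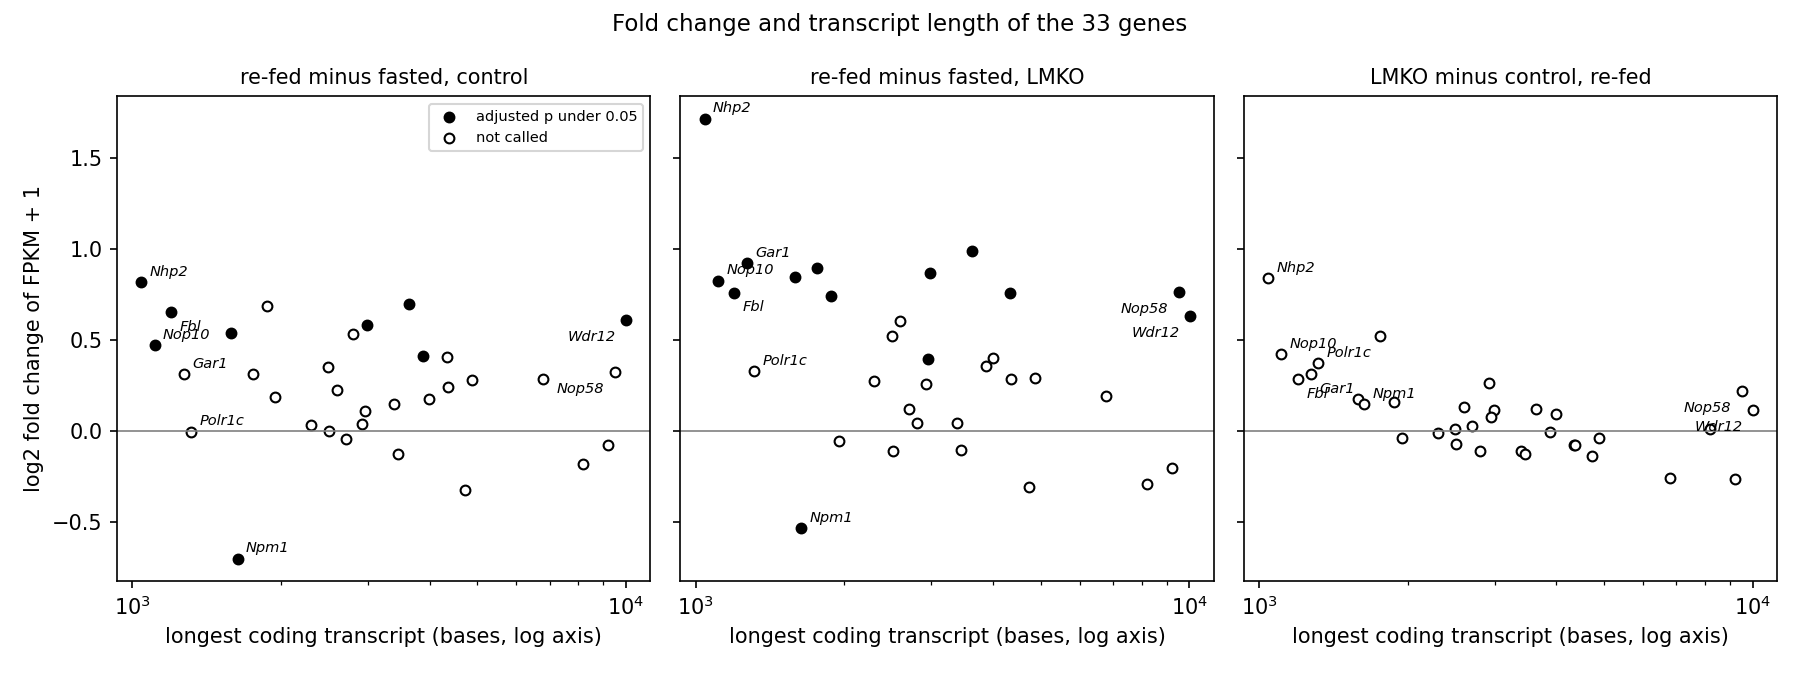
Each point is 1 of the 33 genes, with the length of its longest protein-coding transcript on a log axis and its log2 fold change of FPKM + 1; filled points have an adjusted p under 0.05. Short genes such as Nhp2 lie highest in the comparison of LMKO with control after re-feeding (0.84), where no gene is called, while Wdr12 and Nop58, annotated with long transcripts, are called among the higher genes after re-feeding in LMKO.

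Myc and the ribosomal RNA precursor locus were recorded beside the set. Myc, a known activator of ribosome biogenesis genes, had 3.20 and 7.41 FPKM in fasted controls, 1.34 and 15.9 in fasted LMKO livers, 1.24 and 0.866 in re-fed controls, then 3.89 and 1.12 in re-fed LMKO, so its fasted libraries were far apart. It was not called after re-feeding (-1.54, limma adjusted p = 0.225 in control and -0.97, adjusted p = 0.418 in LMKO). Rn45s, the precursor that selection of polyadenylated RNA should largely remove, ran from 185 to 3448 FPKM, and was not called either (2.27, adjusted p = 0.119 and 1.18, adjusted p = 0.369).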

How the data were processed

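The FPKM values were computed and deposited by the authors, 1 list of 23699 loci per library. Per the submitters' processing notes, TopHat 1.4.1, SAMtools 1.4.1, Cufflinks 2.0.2, Cuffdiff 2.0.2 and mm9 were used; whether libraries were scaled further is not stated there. Lists were joined by position and symbol, and starts, which count from 0, are printed 1 higher. FPKM holds no counts, so depth in fragments is unknown and no count model was fitted. limma 3.58.1 (R 4.3.3) was run on log2(FPKM + 1) of loci with at least 1 FPKM in at least 2 libraries, with 4 group means, an eBayes trend (4 residual and 2.74 prior degrees of freedom) and two-sided p-values; it was tested on simulated data.

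The members and lists were chosen with earlier results of these data known. Genes with full values were, per comparison, called members whose libraries did not overlap (up to 8 rises and 8 falls), or the 3 smallest p-values where none was called, and a fixed group (Fbl, Nop56, Dkc1, Nop10, Polr1a, Polr1b, Bop1, Pes1, Ncl, Npm1, Med23, Myc, Rn45s); of each wider list, up to 2 called genes per re-feeding comparison.

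Transcript lengths (GENCODE M21) served for removal of each library's trend on log2 length, and 3 measures were tried. The longest transcript of any kind came first. The longest protein-coding transcript and then coding-sequence length were added after the calls under the earlier measures had been seen, and all 3 are given. Promoters are from RefSeq, GRCm38.p6.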

Additional observations from a re-analysis of the deposited data

How the results depend on the processing

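Of 372 counts and medians recomputed under the alternatives, 351 stayed near the value reported (counts within 1.5 times, medians within 0.158, the SD of library medians within groups) and 21 moved further. The 8 genes called higher after re-feeding in control became 4 with no filter on low values, 4 with median-ratio scaling, 3 with only the 4 libraries of the comparison and 3 to 7 with 1 library left out; genes called lower there numbered 0 to 2, and the median ran from 0.093 to 0.35. In LMKO, 9 to 15 genes were higher and 0 to 1 lower with 1 library left out. No gene was called between genotypes or in the interaction under any alternative run.

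The replicate block, a term for the replicate number, left 4 genes called higher in control. Libraries of the same number did not deviate together (correlations of -0.084 to -0.0083), so the numbers were not taken as pairs.

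The measure of length was a choice made with results in view. The longest transcript of any kind, used first, gave 6 genes higher in control and 13 in LMKO, with a control median of 0.11. The longest protein-coding transcript gave 5 and 11, and coding length gave 7 and 18, with an LMKO median of 0.53. As shares of the 33 these are 18.2%, 15.2% and 21.2% in control, where 12.7%, 12.3% and 13.8% of all loci were higher, and 39.4%, 33.3% and 54.5% in LMKO, beside 15.6%, 14.5% and 17.6%. Heatr1 was gained in both genotypes, and Nat10 and Rrp1b in LMKO, under all 3 measures; Nop58 was gained in control under both transcript measures, and Rrp12 in control and Bop1, Mybbp1a, Nop2 and Polr1b in LMKO under coding length. Fbl was lost only under the second of these. Nop10 reversed in control under all 3 (-0.0081, -0.0089 and -0.22) and in LMKO under coding length (-0.064). Omitting loci under 200 bases, also added after seeing the data, left the control counts unchanged and gave 14 higher in LMKO.

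Over all loci, calls of re-feeding in control went from 3610 to 1968 with only the 4 libraries and to 1539 to 3151 with 1 library left out, and in LMKO from 4296 to 2193 to 4251. Calls of genotype in the fasted state went from 18 to 11 without a filter and 8 with only the 4 libraries. In the re-fed state 11 became 7 without loci under 200 bases and 7 with coding length, and the interaction's 4 calls became 7 without a filter, 2 under the first length measure and 0 with coding length or without short loci. With 1 library left out they numbered 12 to 57, 5 to 14 and 3 to 16 in these comparisons, and 18 to 55 (34) over both states. Depth in fragments is unknown, so the precision of low values such as those of Polr1e could not be given.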
